A study of Mus musculus with 9 samples.

Results

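The genes described here are the Kazal and whey acidic protein (WAP) protease inhibitors of the mouse caput epididymis, taken as every gene whose symbol begins with Spink or Wfdc, together with Eppin and Slpi. They were 33 of the 24346 genes measured, made up of 13 Spink genes (Spinkl included), 18 Wfdc genes, Eppin and Slpi. Of these, 24 reached at least 1 RPKM (reads mapped to a gene, scaled to its exon length and to the size of the library) in at least 3 of the 9 libraries and were tested among 13647 genes. The study profiled the caput of 14-week-old males by RNA-seq to compare mice that lack the lumicrine factor NICOL with mice that lack the receptor ROS1. The initial segment (IS) was dissected along with the caput, because in both mutants it is hard to tell apart from the caput. The Nicol-/- males lack all exons of Nicol on both alleles, on a B6D2F1 background. The Ros1-/- males lack the receptor tyrosine kinase of the same pathway. The controls were Nicol+/- males, which carry 1 null allele themselves, and no Ros1+/- library was analysed here. Each genotype had 3 libraries, and both knockouts were set against the same 3 Nicol+/- libraries, so the 2 comparisons are not independent. The design text speaks of quadruplicates, while 3 samples per genotype are listed. The labels spell the gene Nicole, and the table lists it as Gm1673.

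Kazal and WAP inhibitors are small secreted proteins, each built on a compact fold held by disulphide bonds. A Kazal domain presents a loop that fits the active site of a serine protease, and the Spink proteins carry one or more of them. WAP domains, carried by the Wfdc proteins, Eppin and Slpi, block serine proteases in a similar way, and some WAP proteins carry a Kunitz inhibitor domain as well. In the male tract such proteins are released into the epididymal lumen, where several of them bind to maturing spermatozoa.

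The targeted genes were checked first. Gm1673 (Nicol) was at 0 in all 3 Nicol-/- libraries, at 16.6 to 19.6 RPKM in Ros1-/- and at 6.05 to 9.09 RPKM in Nicol+/-. Ros1 had 16.8 to 24.7 RPKM in Nicol-/-, 8.06 to 9.32 RPKM in Ros1-/- and 40.7 to 47.9 RPKM in Nicol+/-. The libraries held an estimated 8189631 to 16595565 reads. The 8 IS markers were all lower in both knockouts (Etv4, Etv5, Lcn8, Lcn9, Cst8, Rnase10, Adam28 and Ovch2), with summed levels of 49.9 to 137 RPKM in Nicol-/-, 44.3 to 46.8 RPKM in Ros1-/- and 20520 to 32373 RPKM in Nicol+/-. Of 5 caput epithelium markers, 3 were called lower in Nicol-/- and 2 in Ros1-/-, while Gpx5, a secreted peroxidase, stayed between 23430.1 and 36736 RPKM over all libraries. The 4 markers of ciliated efferent duct cells were all called higher in Nicol-/- and none was in Ros1-/-. Of the 3 clear cell markers, 2 (Foxi1 and Atp6v1g3) were called higher in both knockouts, and the 3 summed to 82.8 to 104 RPKM in Nicol-/-, 82.8 to 90.6 RPKM in Ros1-/- and 58.0 to 69.4 RPKM in Nicol+/-, with none at 0. The part of these cells in the inhibitor levels was not tested. In these bulk samples, fewer cells of a type and less RNA per cell cannot be told apart.

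The summed level of the inhibitors was higher in both knockouts. All 33 added up to 17271, 17079 and 12521 RPKM in the Nicol-/- libraries, 18721, 19517 and 14070 RPKM in the Ros1-/- libraries and 11254, 10967 and 7245 RPKM in the Nicol+/- libraries. No knockout library was as low as any control library. Spink8, Wfdc10, Spink11 and Spink2 made up 72.9% to 82.8% of that sum in each library, so the sum speaks mainly of these genes. Rn45s, the ribosomal RNA precursor and a sign of how completely ribosomal RNA was removed, also moved with genotype, at 1922 to 2579 RPKM in Nicol-/-, 4699.8 to 17294 RPKM in Ros1-/- and 592 to 1185 RPKM in Nicol+/-, and its part in the sums was not tested.

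**Figure D1:**
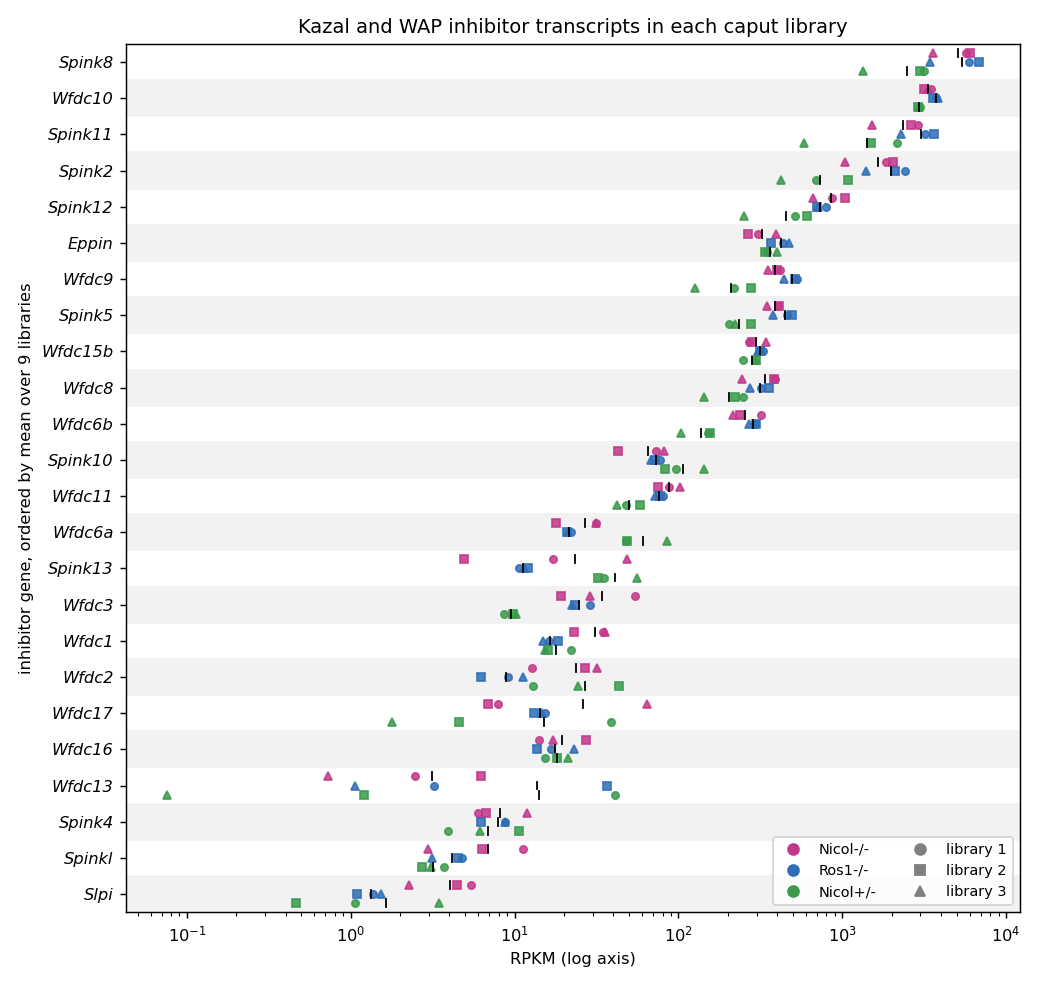
RPKM (log axis) of the 24 tested inhibitor genes, ordered by their mean over all libraries. Colours give the genotype, symbols the library number, and black ticks the mean of 3 libraries. Levels span from 0.0754 RPKM (Wfdc13 in Nicol+/- library 3) to 6839 RPKM (Spink8 in Ros1-/- library 2), and library 3 (triangles) lies at the low end of each genotype for Spink8, Spink11 and Spink2.

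Among the 24 tested inhibitors, Nicol-/- caput had 1 gene lower and 8 higher than Nicol+/- caput at an adjusted p under 0.05 (limma on log2(RPKM + 1), Benjamini-Hochberg over all 13647 genes). The gene called lower was Wfdc6a, and those called higher were Wfdc3, Spink2, Spink12, Wfdc9, Wfdc6b, Wfdc11, Wfdc1 and Spink5. Over all tested genes the same rule called 11.9% lower and 8.95% higher. The median log2 difference of the inhibitors was 0.75, against 0.0045 over all tested genes. In 2 inhibitors every Nicol-/- library was lower than every Nicol+/- library, and in 9 every one was higher, beside 20.2% and 17.5% of all tested genes.

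Ros1-/- caput gave a similar count against the same controls, with 1 inhibitor lower (Wfdc6a) and 6 higher (Spink2, Wfdc9, Wfdc3, Wfdc6b, Spink5 and Wfdc11). The share of all tested genes was 13.3% for lower and 9.52% for higher. The median log2 difference of the inhibitors was 0.46, beside 0.014 over all genes. The libraries did not overlap for 4 inhibitors in the lower direction and 12 in the higher, against 23.8% and 22.5% of all tested genes. Fold changes below are on the log2(RPKM + 1) scale, which understates the change of genes near 1 RPKM.

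**Figure D2:**
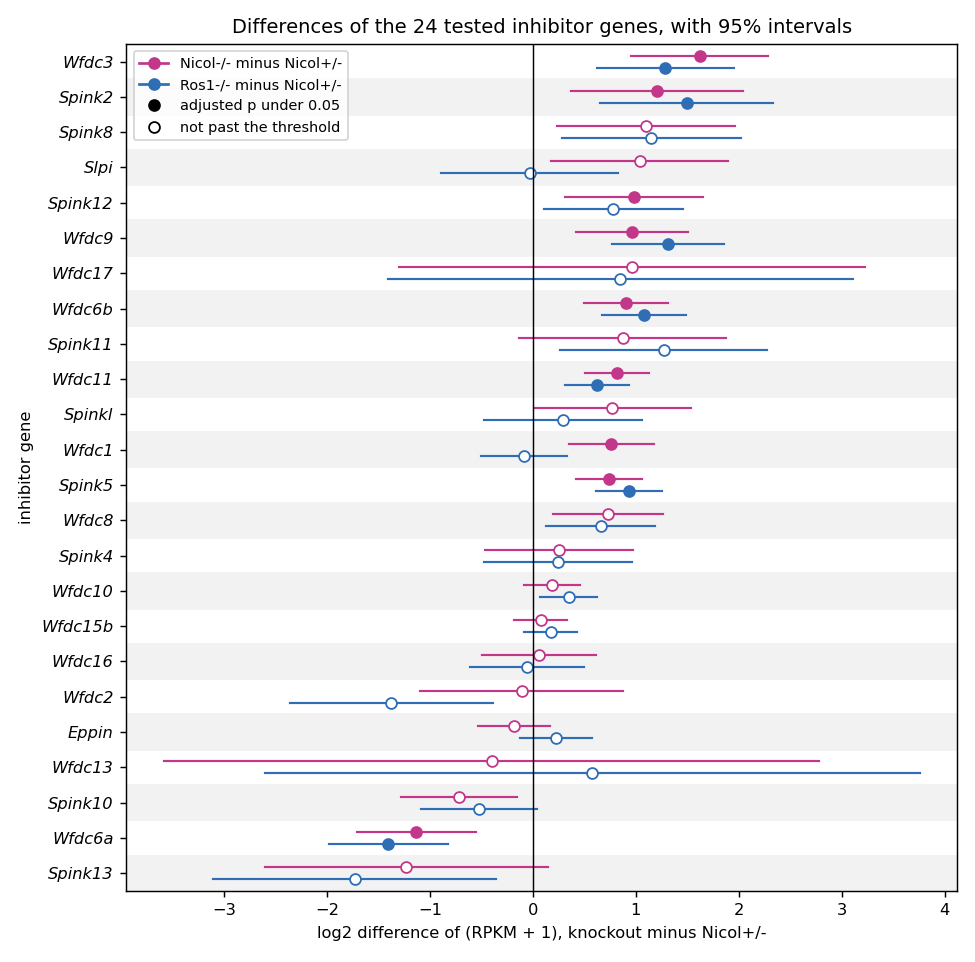
Log2 difference of (RPKM + 1) for each tested inhibitor, Nicol-/- minus Nicol+/- in pink and Ros1-/- minus Nicol+/- in blue, with bars for the 95% interval from limma and filled circles for an adjusted p under 0.05. Wfdc6a is filled on the left in both comparisons, Wfdc3, Spink2, Wfdc9, Wfdc6b, Wfdc11 and Spink5 are filled on the right in both, and Wfdc13 and Wfdc17 have the widest intervals.

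Wfdc6a and Wfdc6b, closely similar WAP genes with Eppin and Wfdc8 between them, went in opposite directions. Wfdc6a was at 31.5, 17.8 and 31.4 RPKM in Nicol-/-, at 22.2, 20.8 and 21.2 RPKM in Ros1-/- and at 47.7, 48.3 and 85.6 RPKM in Nicol+/-. Every knockout library lay below every control library. The log2 difference was -1.13 ± 0.26 (SE) for Nicol-/- and -1.40 ± 0.26 for Ros1-/-, with limma adjusted p-values of 0.0155 and 0.00508.

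Wfdc6b had 318, 237 and 214 RPKM in Nicol-/-, 291, 297 and 269.6 RPKM in Ros1-/- and 152, 155 and 103 RPKM in Nicol+/-. The knockout libraries all stood above the controls, by 0.91 ± 0.18 in Nicol-/- and 1.08 ± 0.18 in Ros1-/- on the log2 scale (SE, limma adjusted p = 0.00883 and 0.00321). The share of Wfdc6a in the summed RPKM of both genes was 9.01%, 6.99% and 12.8% in Nicol-/-, 7.09%, 6.54% and 7.29% in Ros1-/- and 23.9%, 23.8% and 45.3% in Nicol+/-.

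The values of this pair carry a limit that comes from their sequences. Aligned over 803 bases, the first annotated transcript of each gene was identical at 747 bases (93.0%), and 46.7% of the 50-base windows of Wfdc6a transcripts and 40.9% of those of Wfdc6b also occur in the other gene. How the authors' counting divided reads that match both is not stated, and the level of each is therefore uncertain. No other pair of inhibitors shared more than 5.99% of such windows. The likeness is also seen in windows around annotated start sites, which are shown here because the copies moved in opposite directions. RefSeq gives a window of 250 bases before to 50 bases after a start site for each gene (GRCm38.p6). The Wfdc6a window lies on the minus strand at chr2:164585128-164585427, and the Wfdc6b window lies on the plus strand at chr2:164613450-164613749. Both start sites and the shared runs lie inside the annotated gene spans. The likeness shown is therefore of sequence within the genes. RefSeq also gives another Wfdc6a window, starting at position 164585398. That window was not among the closest alignments with Wfdc6b and is not shown. Capitals mark the exact runs of at least 12 bases that both share.
Wfdc6a: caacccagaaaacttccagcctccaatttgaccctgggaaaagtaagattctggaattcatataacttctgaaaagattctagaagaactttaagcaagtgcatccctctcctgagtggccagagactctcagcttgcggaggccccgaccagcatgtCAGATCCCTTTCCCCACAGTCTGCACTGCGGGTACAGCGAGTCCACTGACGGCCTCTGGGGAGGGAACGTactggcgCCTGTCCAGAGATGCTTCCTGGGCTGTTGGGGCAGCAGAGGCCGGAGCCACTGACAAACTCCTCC
Wfdc6b: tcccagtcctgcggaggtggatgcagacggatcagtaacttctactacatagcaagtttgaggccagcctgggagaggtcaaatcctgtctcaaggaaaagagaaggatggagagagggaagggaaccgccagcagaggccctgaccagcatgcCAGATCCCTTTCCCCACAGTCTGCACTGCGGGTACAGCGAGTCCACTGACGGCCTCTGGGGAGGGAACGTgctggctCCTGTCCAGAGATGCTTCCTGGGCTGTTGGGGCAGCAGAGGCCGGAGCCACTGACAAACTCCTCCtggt

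The best local alignment of these windows covered 164 bases, of which 159 were identical (97.0%). The capitals mark 2 shared runs with 135 bases in all, the longer of 70 bases. The letters AGGAAG, the core of PEA3-type ETS sites, occur on the reverse strand within the second shared run of both windows and nowhere else in either. Of the 17 inhibitors with a promoter in the RefSeq table, 9 held AGGAAG on either strand in at least 1 window, beside 38.4% of all 27025 genes, and 4 held AGAACA, an androgen receptor motif, beside 21.3%. The windows of Wfdc8 and Wfdc6b overlap by 173 and 187 bases, so that 1 occurrence can count for both genes. A match of letters is a description and no evidence of binding.

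**Figure D3:**
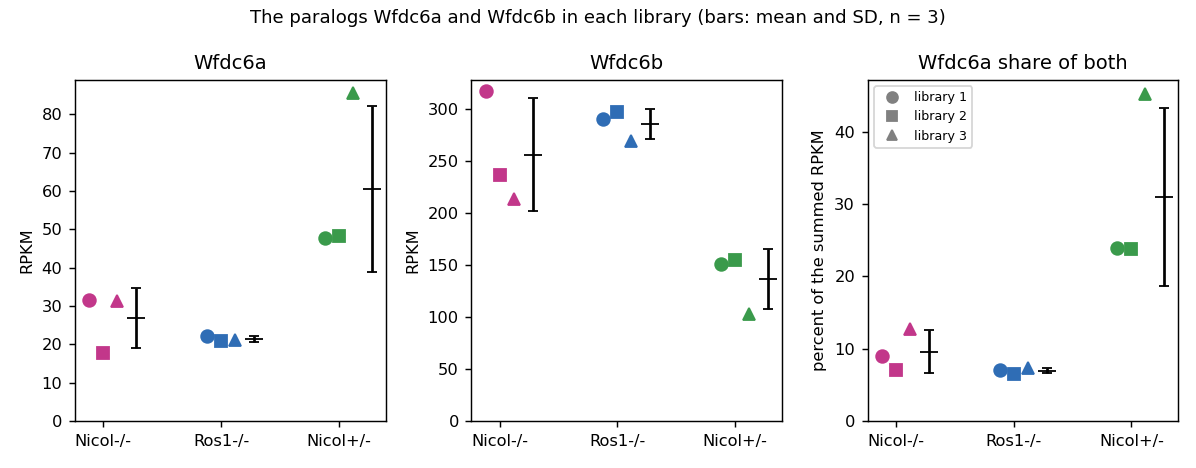
RPKM of Wfdc6a (left) and Wfdc6b (middle) in each library, and the share of Wfdc6a in the summed RPKM of both (right, percent), by genotype. Symbols give the library number, and bars the mean and SD of 3 libraries. Wfdc6a lies at 17.8 to 31.5 RPKM in both knockouts and at 47.7 to 85.6 RPKM in Nicol+/-, while Wfdc6b lies at 214 to 318 RPKM in the knockouts and at 103 to 155 RPKM in Nicol+/-.

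Wfdc8, a WAP gene whose human counterpart also has a Kunitz domain, lies head to head with Wfdc6b on the opposite strand. The annotated exons of the pair share 105 bases, which is 10.7% of the exon bases of Wfdc6b and 2.93% of those of Wfdc8. The library kit keeps strand, but the strand setting of the authors' counting is not stated, which bears on this pair. The annotated spans of Wfdc9 with Wfdc10 and of Spink10 with Spink13 also overlap on opposite strands, but no shared exon bases were found for them. Wfdc8 was at 386, 381 and 245 RPKM in Nicol-/-, at 319.6, 357 and 272 RPKM in Ros1-/- and at 249, 222 and 143 RPKM in Nicol+/-. The highest control library stood just above the lowest Nicol-/- library and below all Ros1-/- libraries. Its log2 difference was 0.73 ± 0.24 in Nicol-/- and 0.66 ± 0.24 in Ros1-/- (SE, limma adjusted p = 0.0561 and 0.0737). With the replicate number as a block in the 6 Nicol libraries, Wfdc8 passed the threshold (limma adjusted p = 0.0135).

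Wfdc3 showed the largest rise among the inhibitors called in Nicol-/-. It had 54.4, 19.3 and 28.9 RPKM in Nicol-/-, 28.7, 23.2 and 22.5 RPKM in Ros1-/- and 8.66, 9.76 and 10.2 RPKM in Nicol+/-. All knockout libraries exceeded all controls. The difference was 1.62 ± 0.30 for Nicol-/- and 1.29 ± 0.30 for Ros1-/- on the log2 scale (SE, limma adjusted p = 0.00608 and 0.0145). Without Ros1-/- library 1, the second value was 1.18 (limma adjusted p = 0.0608).

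Wfdc9 and Wfdc11, WAP genes of the same chromosome 2 group, were also higher in both knockouts. Wfdc9 was at 416, 397 and 349.9 RPKM in Nicol-/-, at 531, 512 and 439 RPKM in Ros1-/- and at 218, 279 and 127 RPKM in Nicol+/-. Its knockout libraries did not overlap the controls, and the log2 difference was 0.97 ± 0.24 and 1.31 ± 0.24 in Nicol-/- and Ros1-/- (SE, limma adjusted p = 0.0235 and 0.00526). Without Nicol-/- library 1 or 2 the Nicol-/- value became 0.91 or 0.94, with limma adjusted p-values of 0.0661 and 0.0544. Wfdc11 had 86.9, 75.1 and 102 RPKM in Nicol-/-, 80.6, 76.7 and 72.2 RPKM in Ros1-/- and 48.0, 58.6 and 42.4 RPKM in Nicol+/-. Here too all knockout libraries were above all controls, by 0.82 ± 0.14 and 0.62 ± 0.14 (SE, limma adjusted p = 0.00402 in Nicol-/- and 0.0121 in Ros1-/-). The Ros1-/- value without Ros1-/- library 1 was 0.59 (limma adjusted p = 0.0528).

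Wfdc1 encodes ps20, a WAP protein first purified from prostate stroma, and it rose in Nicol-/-. It stood at 34.8, 22.9 and 35.4 RPKM in Nicol-/-, at 16.1, 18.4 and 14.9 RPKM in Ros1-/- and at 22.0, 16.1 and 15.2 RPKM in Nicol+/-. The Nicol-/- libraries were above those of both other genotypes. The difference from Nicol+/- was 0.76 ± 0.18 (SE, limma adjusted p = 0.0206) in Nicol-/- and -0.09 ± 0.18 (limma adjusted p = 0.758) in Ros1-/-. The direct difference, Ros1-/- minus Nicol-/-, was -0.85 ± 0.18 with a limma adjusted p of 0.058, so the knockouts were not shown to differ. Leaving out Nicol-/- library 1 or 3 or Nicol+/- library 2 or 3 ended the Nicol-/- call, at limma adjusted p-values of 0.0549 to 0.0782. The 6 fibroblast markers summed to 272 to 390 RPKM in Nicol-/-, 180 to 248 RPKM in Ros1-/- and 199.5 to 289 RPKM in Nicol+/-, with 1 of 6 called higher and 1 lower in Nicol-/-, and none was at 0. The 5 smooth muscle markers, all called higher in Nicol-/-, summed to 679 to 716 RPKM there, 378 to 414 RPKM in Ros1-/- and 369.7 to 514 RPKM in Nicol+/-. Their part in the Wfdc1 difference was not tested.

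Of the 9 tested Spink genes, 3 were called higher in Nicol-/- and 2 in Ros1-/-, and none was called lower. The shares of all tested genes were 8.95% and 9.52% for higher and 11.9% and 13.3% for lower. Spink5, the many-domain Kazal inhibitor LEKTI that restrains kallikreins in skin, had 403, 410.3 and 348 RPKM in Nicol-/-, 463, 495 and 379.8 RPKM in Ros1-/- and 202, 276 and 222 RPKM in Nicol+/-. The groups did not overlap. Its log2 difference was 0.74 ± 0.14 in Nicol-/- and 0.94 ± 0.14 in Ros1-/- (SE, limma adjusted p = 0.00762 and 0.00193).

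Spink2, an inhibitor known from male germ cells, where it keeps the sperm protease acrosin in check, was at 1854, 2029.5 and 1043 RPKM in Nicol-/-, at 2427, 2109.9 and 1396 RPKM in Ros1-/- and at 692, 1088 and 425 RPKM in Nicol+/-. The Ros1-/- libraries all exceeded the controls, while the lowest Nicol-/- library fell just under the highest control. The difference was 1.205 ± 0.37 and 1.49 ± 0.37 (SE, limma adjusted p = 0.0487 in Nicol-/- and 0.0206 in Ros1-/-). The Nicol-/- call was lost in 7 of 9 fits that left out a library, the exceptions being Nicol-/- 3 and Nicol+/- 2, at limma adjusted p-values of up to 0.157. The Ros1-/- call was lost without Ros1-/- 1 or 2 or Nicol+/- 1 or 3, at up to 0.0803. Germ cell and sperm RNA was also higher in the knockouts. Its 8 markers summed to 250.3, 314 and 647 RPKM in Nicol-/-, to 287, 310.4 and 714 RPKM in Ros1-/- and to 154, 107 and 117 RPKM in Nicol+/-, with 5 of 7 tested called higher in either knockout and at most 1 at 0 in any library. Their part in the Spink2 levels was not tested.

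Spink12 had 866, 1037 and 665 RPKM in Nicol-/-, 797, 699 and 710.1 RPKM in Ros1-/- and 512, 607 and 249.6 RPKM in Nicol+/-. Both knockouts lay above the controls in every library. The log2 difference of 0.98 ± 0.30 in Nicol-/- passed the threshold and that of 0.78 ± 0.30 in Ros1-/- did not (SE, limma adjusted p = 0.0463 and 0.0895). The Nicol-/- call was lost in 7 of 9 fits that left out a library, the exceptions again being Nicol-/- 3 and Nicol+/- 2, at up to 0.118.

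Spink8 had the highest mean of all inhibitors in both knockouts, with 5710.2, 6003 and 3586 RPKM in Nicol-/-, with 5904, 6839 and 3411 RPKM in Ros1-/- and with 3140.45, 2982 and 1341 RPKM in Nicol+/-. No knockout library was as low as a control, yet the difference of 1.10 ± 0.38 and 1.15 ± 0.38 missed the threshold (SE, limma adjusted p = 0.0727 in Nicol-/- and 0.0591 in Ros1-/-). Blocking by replicate number in the 6 Nicol libraries gave a limma adjusted p of 0.0349. Spink11 was at 2888, 2626 and 1515 RPKM in Nicol-/-, at 3184, 3629 and 2281 RPKM in Ros1-/- and at 2147, 1489.7 and 587 RPKM in Nicol+/-. The Ros1-/- libraries did not overlap the controls and the Nicol-/- libraries did, with differences of 1.27 ± 0.45 and 0.87 ± 0.45 (SE, limma adjusted p = 0.0694 and 0.194). Spinkl, which shares 7 windows of 50 bases with Spink11, had 11.2, 6.35 and 2.97 RPKM in Nicol-/-, 4.78, 4.49 and 3.14 RPKM in Ros1-/- and 3.69, 2.74 and 3.08 RPKM in Nicol+/-. Its groups overlapped in both comparisons.

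Spink10 and Spink13 had fitted differences below 0 that did not pass the threshold. Spink10 was at 72.5, 42.7 and 81.1 RPKM in Nicol-/-, at 77.6, 72.1 and 67.8 RPKM in Ros1-/- and at 97.2, 82.3 and 142 RPKM in Nicol+/-. Each knockout library was under each control library. The difference was -0.72 ± 0.25 in Nicol-/- and -0.52 ± 0.25 in Ros1-/- (SE, limma adjusted p = 0.0709 and 0.163), and the replicate block in the 6 Nicol libraries brought the Nicol-/- value past the threshold at 0.0208. Spink13, known in the rat as an epididymal gene needed for sperm maturation, had 17.2, 4.89 and 48.5 RPKM in Nicol-/-, 10.6, 12.05 and 11.3 RPKM in Ros1-/- and 34.9, 32.3 and 56.0 RPKM in Nicol+/-. The Ros1-/- libraries were tight and below every control, at -1.73 ± 0.61 (SE, limma adjusted p = 0.0701). The Nicol-/- libraries spread 9.92-fold and their difference was -1.23 ± 0.61 (SE, limma adjusted p = 0.182). The Ros1-/- value passed the threshold in the fits without Nicol-/- library 2 or 3 (limma adjusted p = 0.00987 and 0.012), which change only the pooled spread. Without Nicol-/- library 3, the Nicol-/- value was -1.98 (limma adjusted p = 0.0158). That library had the highest sums of its genotype for the IS, basal cell, macrophage, ciliated efferent duct cell and germ cell markers. It had the lowest for the caput epithelium, clear cell, neutrophil, mesothelium and adipocyte markers. The part of any of these tissues or cells in the Spink13 level was not tested.

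For several inhibitors the differences between genotypes were small beside the spread of the libraries or small in size. Wfdc10 was abundant, at 3496, 3144 and 3356 RPKM in Nicol-/-, 3745, 3589.5 and 3860.1 RPKM in Ros1-/- and 2970.2, 2903 and 2932 RPKM in Nicol+/-. Its knockout libraries lay above the controls, but the difference was small, at 0.18 ± 0.12 in Nicol-/- and 0.35 ± 0.12 in Ros1-/- (SE, limma adjusted p = 0.315 and 0.0688). Eppin, whose protein coats spermatozoa and joins a WAP with a Kunitz domain, had 307, 264 and 396 RPKM in Nicol-/-, 432, 368 and 471 RPKM in Ros1-/- and 345, 339 and 401 RPKM in Nicol+/-. The 95% interval of its log2 difference ran from -0.53 to 0.17 in Nicol-/- and from -0.13 to 0.58 in Ros1-/-.

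Wfdc15b was at 269.7, 279 and 342 RPKM in Nicol-/-, at 329.8, 314 and 305 RPKM in Ros1-/- and at 249, 297 and 299 RPKM in Nicol+/-. Wfdc16 had 14.1, 27.2 and 17.1 RPKM in Nicol-/-, 16.6, 13.6 and 22.9 RPKM in Ros1-/- and 15.3, 18.02 and 21.2 RPKM in Nicol+/-. Spink4, known from intestinal goblet cells, stood at 5.93, 6.72 and 11.9 RPKM in Nicol-/-, at 8.68, 6.22 and 8.69 RPKM in Ros1-/- and at 3.91, 10.6 and 6.17 RPKM in Nicol+/-. For these 3 genes the groups overlapped in both comparisons, except that the Ros1-/- libraries of Wfdc15b were all above the controls, and no adjusted p was under 0.31 (limma).

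For Wfdc2 and Slpi the libraries of the knockouts did not overlap each other, but no difference passed the threshold. Wfdc2, known as HE4 from the human epididymis, had 9.16, 6.23 and 11.3 RPKM in Ros1-/-, 12.7, 27.0 and 31.9 RPKM in Nicol-/-, against 12.98, 43.2 and 24.4 RPKM in Nicol+/-. The Ros1-/- libraries were below all others, with a difference of -1.37 ± 0.44 from Nicol+/- and -1.27 ± 0.44 from Nicol-/- (SE, limma adjusted p = 0.0505 and 0.184). Slpi, which inhibits neutrophil elastase, was low, at 1.37, 1.09 and 1.52 RPKM in Ros1-/-, 5.45, 4.46 and 2.26 RPKM in Nicol-/-, against 1.06, 0.461 and 3.43 RPKM in Nicol+/-. Its difference was -1.07 ± 0.38 for Ros1-/- minus Nicol-/- and 1.04 ± 0.38 for Nicol-/- minus Nicol+/- (SE, limma adjusted p = 0.2 and 0.0849). The 4 mesothelium markers summed to 1.03 to 2.21 RPKM in Ros1-/-, 2.09 to 3.45 RPKM in Nicol-/- and 0.366 to 1.68 RPKM in Nicol+/-, with at most 1 at 0 in a library. The 4 adipocyte markers summed to 0.06 to 0.699 RPKM in Ros1-/-, to 6.74, 22.4 and 0.0963 RPKM in Nicol-/- and to 0.939, 0.406 and 4.73 RPKM in Nicol+/-, with up to 3 at 0 in a library, and the part of either cell type in the Slpi levels was not tested. The 6 neutrophil markers summed to at most 1.07 RPKM in every library but Nicol-/- 2, which had 20.3 RPKM.

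Between the knockouts, Ros1-/- minus Nicol-/-, no inhibitor was called in either direction by limma, beside 1.15% of all tested genes called lower and 0.403% called higher. At an unadjusted p under 0.05 there were 4, with Wfdc1, Wfdc2 and Slpi lower in Ros1-/- and Eppin higher, beside 9.53% of all tested genes lower and 7.55% higher at that threshold. In 3 inhibitors (Wfdc1, Wfdc2 and Slpi) every Ros1-/- library was lower than every Nicol-/- library and in 2 (Wfdc9 and Wfdc10) every one was higher, against 12% and 11.6% of all tested genes. Leaving out Nicol-/- library 2 brought Wfdc1 past the threshold (-1.05, limma adjusted p = 0.0295). The median difference of the inhibitors was -0.04, beside 0.013 over all genes.

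Wfdc13 and Wfdc17 differed more within a genotype than between genotypes. Wfdc13 was at 2.47, 6.22 and 0.726 RPKM in Nicol-/-, at 3.23, 36.8 and 1.06 RPKM in Ros1-/- and at 41.1, 1.21 and 0.0754 RPKM in Nicol+/-. One Ros1-/- and one Nicol+/- library were thus far above the rest. Wfdc17, known from activated macrophages and microglia, had 7.91, 6.86 and 64.0 RPKM in Nicol-/-, 15.2, 13.1 and 14.7 RPKM in Ros1-/- and 38.9, 4.55 and 1.78 RPKM in Nicol+/-. Of the 8 macrophage markers, 6 were highest of their genotype in Nicol-/- 3 and 1 (Cx3cr1) was lowest there, while in Nicol+/- 1 there were 3 highest (C1qc, Cd68 and Lyz2) and 3 lowest (Csf1r, C1qa and Cx3cr1). The markers summed to 170.4 to 368 RPKM in Nicol-/-, 283 to 322 RPKM in Ros1-/- and 239 to 321 RPKM in Nicol+/-, with none at 0, and their part in the Wfdc17 levels was not tested.

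The remaining 9 inhibitors did not reach the filter. Wfdc5 and Wfdc12 were listed at 0 in every library. Wfdc15a, Wfdc18 (the mammary inhibitor Expi), Wfdc21, Spink1 (the pancreatic trypsin inhibitor), Spink6, Spink7 and Spink14 had at most 3.18 RPKM and at most an estimated 16 reads in any library. At this depth no difference between genotypes could be read from them.

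Most inhibitors lie in a few tight groups on the genome. The chromosome 2 group spans 569.7 kb (GRCm38, chr2:164176325-164745994) and holds 16 of the 33, of which 13 were tested. It had 4 genes called higher and 1 lower in each knockout. Over all tested genes, 8.95% were called higher and 11.9% lower in Nicol-/-, and 9.52% and 13.3% in Ros1-/-. The genes on either side of Wfdc6a, Wfdc2 and Eppin, were called in neither knockout. Chromosome 18 holds 10 Spink genes in 2 groups. The first (chr18:43728069-44196177) includes Spink5, Spink12, Spinkl and Spink11, whose fitted differences were above 0 in both knockouts, with overlapping libraries for Spinkl in both and for Spink11 in Nicol-/-. The second (chr18:62548873-62741387) includes Spink10 and Spink13, whose fitted differences were below 0 in both, with overlapping libraries for Spink13 in Nicol-/-. Of these 6, Spink5 was called in both knockouts and Spink12 in Nicol-/-. Spink8, Spink2, Spink4 and Wfdc1 stand alone on chromosomes 9, 5, 4 and 8.

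**Figure D4:**
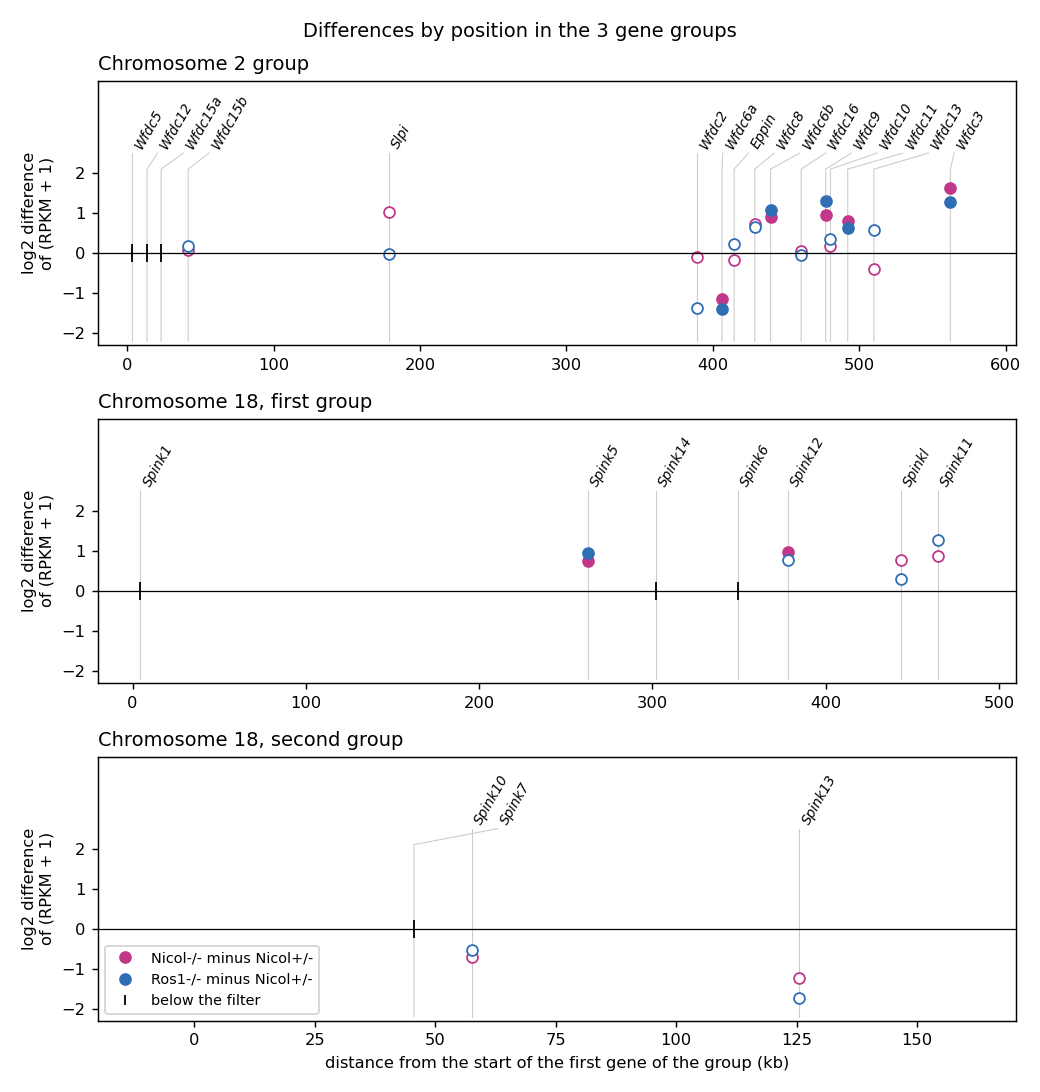
Log2 difference of (RPKM + 1), knockout minus Nicol+/-, against the distance in kb from the first gene of each group, for the chromosome 2 group (top) and the chromosome 18 groups (middle and bottom). Filled circles have an adjusted p under 0.05, open circles do not, and ticks mark genes below the filter. Wfdc6a is the only filled circle below 0, the first chromosome 18 group lies above 0 and the second below it.

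A further 17 genes lie between the first and last member of the chromosome 2 group, of which 5 were tested. Among them Spint3 was lower in both knockouts, Sys1 was lower in Ros1-/- (18.8 RPKM against 23.8 RPKM in Nicol+/-, limma adjusted p = 0.0141), and Sdc4, a cell surface proteoglycan, was higher in Nicol-/- (19.1 RPKM against 13.7 RPKM in Nicol+/-, log2 difference 0.45 ± 0.096 SE, limma adjusted p = 0.0116). The 6 seminal vesicle genes kept as a marker list were at 0 in every library except for 0.158 RPKM of Svs5 in Nicol+/- library 2.

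Related inhibitors and serine proteases were counted from separate lists. The Kunitz list had 5 Spint genes, 3 of them tested. Spint3 was at 1.87, 1.29 and 2.57 RPKM in Nicol-/-, at 1.33, 2.70 and 1.08 RPKM in Ros1-/- and at 9.26, 9.87 and 8.98 RPKM in Nicol+/-. Every knockout library was far under every control, at -1.86 ± 0.22 and -1.99 ± 0.22 (SE, limma adjusted p = 0.000624 in Nicol-/- and 0.000331 in Ros1-/-). Spint2, an inhibitor of membrane serine proteases, was called higher in Ros1-/-, at 775 RPKM against 591 RPKM in Nicol+/- (0.39 ± 0.11 SE, limma adjusted p = 0.0341). It averaged 717 RPKM in Nicol-/- and was not called there (limma adjusted p = 0.106). The direct difference, Ros1-/- minus Nicol-/-, was 0.11 ± 0.11 (SE, limma adjusted p = 0.652), so the knockouts were not shown to differ. Spint1, at 63.3 RPKM in Nicol-/-, 62.2 RPKM in Ros1-/- and 49.0 RPKM in Nicol+/-, was not called.

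Of 24 other secreted or membrane proteins with a Kazal or follistatin-Kazal domain, 16 were tested, and 0 were lower and 6 higher in Nicol-/-, while 2 were lower and 3 higher in Ros1-/-. Over all tested genes, 11.9% were called lower and 8.95% higher in Nicol-/-, and 13.3% and 9.52% in Ros1-/-. The median difference of the list was 0.49 in Nicol-/- and -0.0086 in Ros1-/-, beside 0.0045 and 0.014 over all tested genes. The listed genes with the smallest p in Nicol-/- were Spock1 (34.6 RPKM against 19.9 RPKM in Nicol+/-), Smoc1 (7.83 against 3.72 RPKM) and Tmeff1 (1.98 against 1.02 RPKM). In Ros1-/-, Spock1, Smoc1 and Tmeff1 averaged 34.8, 5.75 and 1.46 RPKM. Several genes of the list are known from connective tissue. The part of stroma, whose marker sums are given for Wfdc1, in these differences was not tested.

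The serine protease list held 96 genes, of which 21 were tested. In Nicol-/- 3 were lower and 4 higher (median difference 0.14), and in Ros1-/- 6 were lower and 3 higher (median 0.32). The share of all tested genes was 11.9% lower and 8.95% higher in Nicol-/- (median 0.0045). In Ros1-/- it was 13.3% lower and 9.52% higher (median 0.014). Ovch2, an IS protease that was also one of the IS markers, averaged 34.8 RPKM in Nicol-/-, 35.2 RPKM in Ros1-/- and 684 RPKM in Nicol+/-, a log2 difference of -4.24 ± 0.14 and -4.22 ± 0.14 (SE, limma adjusted p = 1.9e-07 and 2.2e-07). Prss33 averaged 0.163 RPKM in Nicol-/- and 0.304 RPKM in Ros1-/-, against 4.43 RPKM in Nicol+/-. St14, the membrane protease matriptase, which Spint1 and Spint2 inhibit, averaged 52.5 RPKM in Nicol-/- and 52.1 RPKM in Ros1-/-, against 79.6 RPKM in Nicol+/- (-0.59 ± 0.084 and -0.60 ± 0.084 SE, limma adjusted p = 0.00168 and 0.00122).

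The libraries numbered 3 stood apart for these genes. In 7 of the 24 tested inhibitors (Wfdc13, Wfdc8, Spink11, Wfdc6b, Wfdc9, Spink8 and Spink2) library 3 was the lowest of all 3 genotypes, against 6.27% of all tested genes. In library 2 of all 3 genotypes 2 inhibitors were lowest (Eppin and Wfdc10), against 3.81% of all tested genes, and in library 1 there were 0, against 3.35%. Of the 5 caput epithelium markers, Lcn5 was likewise lowest in library 3 of each genotype, at 14865, 15605 and 8433 RPKM in Nicol-/-, 17137, 19977 and 15064 RPKM in Ros1-/- and 10498, 10201 and 2533 RPKM in Nicol+/-. The other 4, Gpx5, Adam7, Crisp1 and Cst11, were highest in library 3 among the Nicol+/- libraries. In both knockouts, however, Adam7 and Crisp1 were lowest in library 3, while Gpx5 and Cst11 were not. IS marker RNA was highest in library 3 of Nicol-/- (137 RPKM, against 49.9 and 58.2 RPKM) and of Nicol+/- (32373 RPKM, against 20520 and 23807 RPKM), but not of Ros1-/-. Nothing in the labels says what a number stands for, and the part of dissection in this pattern was not tested. Without the 3 libraries numbered 3, Wfdc8 (0.71, limma adjusted p = 0.0077), Spink8 (0.94, 0.0161), Spinkl (1.18, 0.0252) and Slpi (1.77, 0.00282) were called higher in Nicol-/- and Wfdc1 was lost there (0.56, 0.143). In Ros1-/-, Wfdc8 (0.52, 0.0188), Spink11 (0.93, 0.0266) and Spink8 (1.05, 0.00838) were called higher and Wfdc3 was lost (1.40, 0.0651). Over all tested genes, that fit called 648 higher in Nicol-/- and 913 in Ros1-/-, beside 1221 and 1299 in the main fit.

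**Figure D5:**
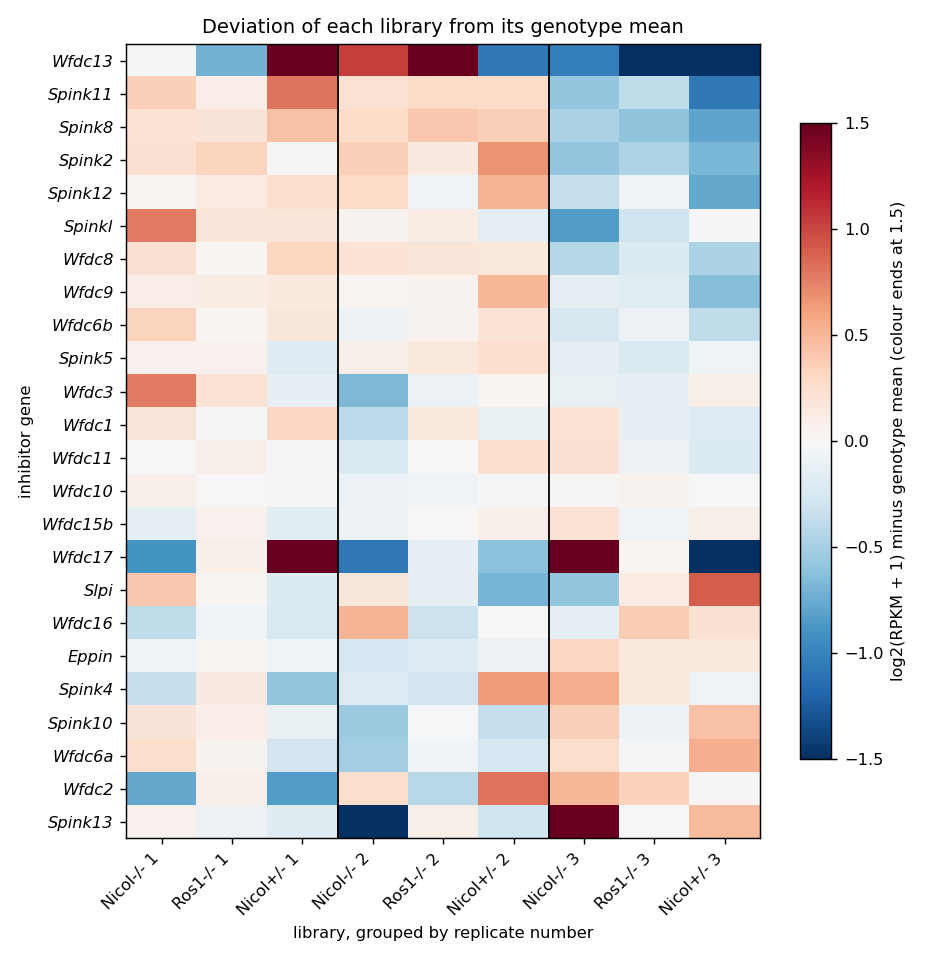
Deviation of log2(RPKM + 1) of each library from the mean of its genotype for the 24 tested inhibitors, with libraries grouped by number and genes ordered by the mean deviation of the libraries numbered 3. Blue is lower and red is higher than the genotype mean. Spink11, Spink8, Spink2 and Wfdc8 are blue in library 3 of all genotypes, while Wfdc6a, Spink10 and Spink13 are red in library 3 of Nicol-/- and Nicol+/-.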

How the data were processed

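RNA of IS-caput epididymis, 3 libraries per genotype, was sequenced after TruSeq stranded mRNA preparation. For mapping, the authors used TopHat 2.1.1 on mm10, and Cufflinks 2.2.1 gave their RPKM values. The deposited table gives a normalized FPKM (here equal to RPKM) and a normalized count signal per gene, both scaled between libraries by the authors. Between 98.6% and 98.9% of the low signal values were whole multiples, within 0.02, of 1 step per library, which gave the estimated reads. How reads with several matches, and their strand, were treated is not given in the sources used.

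Genes that reached 1 RPKM in 3 or more of the 9 libraries were tested on log2(RPKM + 1) with limma 3.58.1 in R 4.3.3, with a mean-variance trend, 3 group means and 6 residual degrees of freedom. P-values were adjusted by the Benjamini-Hochberg method over 13647 genes per comparison. The fit was tested on simulated data. An exact permutation test of 3 against 3 libraries cannot go below 0.1 and was not used. The study says in general terms that experiments were repeated biologically, but the labels tie no library to an animal, so p-values measure the spread between these samples, which may be technical. Positions, promoters and gene names came from RefSeq (GRCm38.p6), where 24260 gene IDs matched, and transcripts from GENCODE M21 were compared with biopython 1.88 in windows of 50 bases. Same-numbered libraries of Nicol-/- and Nicol+/- deviated together (correlations of 0.103 to 0.243 across genes, against -0.198 to 0.0598 between different numbers). Those of Ros1-/- and Nicol+/- did not (-0.044 to 0.0967). Libraries of Nicol-/- and Ros1-/- with different numbers reached 0.242, so these values do not show that a number marks a pair. Every comparison was also fitted with the number as a block.

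Every tested member is named with its values per library, and of the other lists the up to 3 genes with the smallest p in Nicol-/- and every called Spint gene. The members and lists were chosen with earlier results of these data known. Alternative pseudocounts (0.1 and 5), filters, scalings and fits, and fits leaving out each library, were run. The fit of a block within 6 libraries and the fit without the libraries numbered 3 were chosen after seeing the data.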

Additional observations from a re-analysis of the deposited data

How the results depend on the processing

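No inhibitor called in a knockout changed direction under any of the 21 alternatives run for each comparison. Wfdc6a, Spink5 and Wfdc6b kept their calls in both knockouts under all 21, as did Wfdc11 and Wfdc3 in Nicol-/- and Wfdc9 in Ros1-/-. In Nicol-/-, against 1 inhibitor lower and 8 higher, fits leaving out a library gave 1 to 3 lower (3 without Nicol-/- 3). They gave 4 to 9 higher (4 without Nicol-/- 1 and 5 without Nicol-/- 2), and the fit of only the 6 libraries gave 5 higher. Calls over all tested genes changed too. There, 1221 were called higher in the main fit, 794 without Nicol-/- 1, 1049 without Nicol-/- 2 and 649 with only the 6 libraries. Without Nicol-/- 3, 1534 were called lower, beside 1628 in the main fit. Spink2 was lost under 5 other alternatives (limma adjusted p up to 0.0833) and Spink12 under 4 (up to 0.0972). Quantile normalization gave 11 higher in Nicol-/-, with Wfdc10, Wfdc8 and Spink8 added. Over all tested genes it called 1427 higher there, beside 1221 in the main fit. In Ros1-/-, against 1 lower and 6 higher, a pseudocount of 0.1, a filter at 5 RPKM and median-ratio scaling each gave 2 lower (Wfdc2 added). Over all tested genes they called 1797, 1518 (of 9727 tested) and 1840 lower, beside 1810 in the main fit. The fit of only the 6 libraries gave 3 lower (Wfdc2 and Spink13 added). Fits leaving out a library gave 1 to 3 lower and 3 to 8 higher (3 without Ros1-/- 1). Wfdc10 was called higher in Ros1-/- with the filter at 5 RPKM, quantile normalization, no trend and robust variance shrinkage (limma adjusted p of 0.0129 to 0.039). Between the knockouts, fits leaving out a library gave 0 to 1 lower (1 without Nicol-/- 2), and there was 1 without the 3 libraries numbered 3 (Slpi). Over all tested genes, the number called higher in Ros1-/- fell from 1299 in the main fit to 554 without Ros1-/- 1. With only the 6 libraries, 1998 were called lower in Ros1-/-, beside 1810 in the main fit. The cause of these shifts was not tested.

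With the replicate number as a block over all 9 libraries Nicol-/- had 2 inhibitors lower and 11 higher, and Ros1-/- had 3 lower and 10 higher, and with the block within the 6 libraries there were 2 lower and 10 higher in Nicol-/-, and Ros1-/- had 2 lower and 9 higher. Over all tested genes, the block over 9 libraries called 1486 lower and 1305 higher in Nicol-/-, and 1699 and 1365 in Ros1-/-. The block within 6 libraries called 981 lower and 749 higher in Nicol-/-, and 1715 and 1412 in Ros1-/-. The block in the 6 Nicol libraries lost no call of an inhibitor. A planned edgeR test on recovered reads was not run, since the normalized signal did not give whole reads for all genes.

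Depth limits the genes under 1 RPKM, and 3 libraries per genotype limit every call.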

Other observations

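Wfdc18 (Expi), below the filter of the tests, was at 0, 0 and 0.189 RPKM in Nicol-/-, at 0.392, 0.595 and 0 RPKM in Ros1-/- and at 3.18, 0 and 3.15 RPKM in Nicol+/-. It was thus above 1 RPKM in 2 control libraries and at 0 in the third. Its neighbour Wfdc17 was likewise high in Nicol+/- library 1 (38.9 RPKM), but not in Nicol+/- library 3 (1.78 RPKM).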
